A study of Homo sapiens with 32 samples.

Results

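The genes described here are 8 human small RNA genes that RNA polymerase III transcribes from promoters lying upstream of the transcribed region: RNU6-1, RNU6-2, RNU6-7, RNU6-8, RNU6-9, RN7SK, RMRP and RPPH1. Counted windows were assigned to them when the window centre lay within 500 bp of a GENCODE transcript start on hg38, and 16 of 212358 windows met this rule. The rule used positions only. Accessibility was measured by ATAC-seq, which reads where Tn5 transposase can cut DNA, in 1 clone of HEK293T cells, an established line of human embryonic kidney origin. In every library, control libraries included, ZNF143, a transcription factor with zinc fingers, was fused to a degron tag. The 8 control libraries received DMSO and the 8 dTAGV-1 libraries received 50 nM dTAGV-1 for 30 minutes, a compound that brings the tagged protein to a ubiquitin ligase. The comparison asks whether chromatin at these genes changes soon after ZNF143 is targeted. ZNF143 protein was not analysed here, so the degree of its loss in each library is unknown. The labels number the libraries as replicates 9 to 16 and do not say whether they came from separate cultures, so the p-values measure the spread between these libraries, which may be technical.

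Promoters of this kind, called type 3, hold a distal element with an octamer bound by POU2F1 (Oct-1), a proximal element bound by the complex SNAPc, and in most cases a TATA box bound by TBP together with BRF2. ZNF143 is known to bind the distal element of many such genes and to stimulate their transcription. U6 snRNA, from the RNU6 genes, is part of the catalytic core of the spliceosome, 7SK RNA holds the elongation factor P-TEFb inactive, and the RNAs of RMRP and RPPH1 are the catalytic RNAs of RNase MRP and RNase P, which process ribosomal and transfer RNA precursors.

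The proximal promoters are shown first, because they let the core promoters of the 8 genes be compared. Each sequence runs 5′ to 3′ on the transcribed strand of hg38, from 75 bases before the transcript start to 5 bases past it. Capitals mark the letters ACCNTAA, a core of the proximal element, and the letters TATA.
RNU6-1, chr15:67840040-67840120, minus strand: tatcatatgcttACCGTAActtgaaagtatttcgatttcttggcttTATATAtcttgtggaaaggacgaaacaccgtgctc
RNU6-2, chr19:1021447-1021527, plus strand: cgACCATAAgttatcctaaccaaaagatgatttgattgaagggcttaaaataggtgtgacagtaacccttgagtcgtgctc
RNU6-7, chr14:32201970-32202050, plus strand: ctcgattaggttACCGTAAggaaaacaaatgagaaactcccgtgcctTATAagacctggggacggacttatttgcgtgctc
RNU6-8, chr14:32203264-32203344, minus strand: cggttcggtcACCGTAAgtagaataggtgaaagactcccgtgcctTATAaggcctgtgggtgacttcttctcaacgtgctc
RNU6-9, chr19:893409-893489, plus strand: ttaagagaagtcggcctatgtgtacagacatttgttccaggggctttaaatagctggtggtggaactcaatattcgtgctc
RN7SK, chr6:52995546-52995626, plus strand: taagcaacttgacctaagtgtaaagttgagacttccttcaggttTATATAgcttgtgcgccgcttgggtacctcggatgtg
RMRP, chr9:35658012-35658092, minus strand: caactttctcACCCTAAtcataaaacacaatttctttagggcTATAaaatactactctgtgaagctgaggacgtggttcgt
RPPH1, chr14:20343402-20343482, minus strand: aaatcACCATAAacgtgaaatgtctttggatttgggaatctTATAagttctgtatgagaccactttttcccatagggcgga
The core ACCNTAA was chosen after these sequences had been looked at, and was searched on the transcribed strand between 75 and 40 bases before the start. It was found in 6 of the 8 genes and in 0.277% of 219255 annotated transcript starts searched over the same span. RNU6-9 and RN7SK lacked these letters. TATA, searched between 40 and 15 bases before the start, was found in 6 of 8 genes and in 4.9% of transcript starts. RNU6-2 and RNU6-9 lacked it.

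The distal elements are shown to compare the octamer ATTTGCAT among the genes, and capitals mark the octamer or, in RNU6-2, its match with 1 mismatch.
RNU6-1, chr15:67840239-67840286, minus strand: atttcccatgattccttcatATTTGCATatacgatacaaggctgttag
RNU6-2, chr19:1021261-1021308, plus strand: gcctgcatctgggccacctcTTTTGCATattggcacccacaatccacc
RNU6-7, chr14:32201804-32201851, plus strand: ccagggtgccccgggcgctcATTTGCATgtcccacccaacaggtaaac
RNU6-8, chr14:32203464-32203511, minus strand: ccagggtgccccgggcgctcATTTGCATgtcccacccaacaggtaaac
RNU6-9, chr19:893240-893287, plus strand: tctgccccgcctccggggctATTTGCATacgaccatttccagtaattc
RMRP, chr9:35658207-35658254, minus strand: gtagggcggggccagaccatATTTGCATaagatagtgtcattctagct
RPPH1, chr14:20343481-20343528, minus strand: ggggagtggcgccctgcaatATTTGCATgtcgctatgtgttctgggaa
Both strands were searched between 300 and 50 bases before the start. The octamer was found in 6 of 8 genes and in 1.52% of transcript starts. It began 217 to 224 bases before the start in RNU6-1, RNU6-7, RNU6-8, RNU6-9 and RMRP, and 101 bases before it in RPPH1. RNU6-2 held TTTTGCAT 241 bases before the start. With up to 1 mismatch the octamer was found in 7 of 8 genes and in 17.7% of transcript starts, so that such a match is common. The stretches of RNU6-7 and RNU6-8 were the same at 48 of 48 bases, while that of RNU6-1 matched RNU6-7 at 16 of 48.

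A core of the ZNF143 motif, CCCA and ATGC separated by 2 bases, was searched on both strands from 400 bases before the start to the start. It was found without mismatch in RN7SK alone among the 8 genes, on the antisense strand 154 bases before the start, and in 2.17% of transcript starts. Capitals mark its reverse complement in the following stretch.
RN7SK, chr6:52995447-52995496, plus strand: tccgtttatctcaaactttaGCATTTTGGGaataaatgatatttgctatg
With up to 1 mismatch the core was found in 7 of 8 genes and in 32.9% of transcript starts, so that such a match is common. RNU6-7 and RNU6-8 held the same word with 1 mismatch, marked in capitals below, 321 bases before their starts. They also shared CCCAGGGTGC, again with 1 mismatch, 242 bases before the start of RNU6-7 and 243 before that of RNU6-8. Both words lie in the upstream windows of the 2 genes, whose responses are compared further on. The 2 stretches below are those around the word 321 bases before the start.
RNU6-7, chr14:32201700-32201749, plus strand: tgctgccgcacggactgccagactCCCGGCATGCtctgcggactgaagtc
RNU6-8, chr14:32203565-32203614, minus strand: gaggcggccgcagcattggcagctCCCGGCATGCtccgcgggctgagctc
Over the whole stretches, the word included, 28 of 50 bases were the same.

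The 5 U6 genes transcribe the same first 100 bases, at 100% identity in each of 10 pairs, but their promoters differ. Over the 240 bases before the start, aligned identity between pairs ranged from 42.9% to 86.4% with a median of 46.9%. The highest value belonged to RNU6-7 and RNU6-8, which lie on chromosome 14 on opposite strands with their starts 1224 bp apart, so that they are transcribed towards each other. Upstream of those 240 bases, up to 500 bases before the start, their identity was 63.0% over 284 aligned columns. For scale, between a U6 gene and RN7SK, RMRP or RPPH1 the 240 bases before the start aligned at 44.2% to 50.4% identity. The median of the U6 pairs lies within that range.

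Of the 16 windows, 8 had their centre nearest the transcript start of 1 gene each and are called start windows, 7 lay upstream with centres 275 to 334 bp before the start, and 1 lay 303 bp downstream of the start of RNU6-1. RPPH1 had a start window only. Start windows had their centre in the exon of the small RNA itself. The centre of the upstream window was intergenic at RNU6-2, RNU6-7, RNU6-8 and RN7SK, in an exon of MED16 at RNU6-9, in an exon of CCDC107 at RMRP, and in an intron of the lncRNA ENSG00000259410 at RNU6-1. Start and upstream windows of the same U6 gene overlapped by 26 to 88 bases and so share some counts, whereas those of RN7SK and of RMRP did not overlap.

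**Figure D1:**
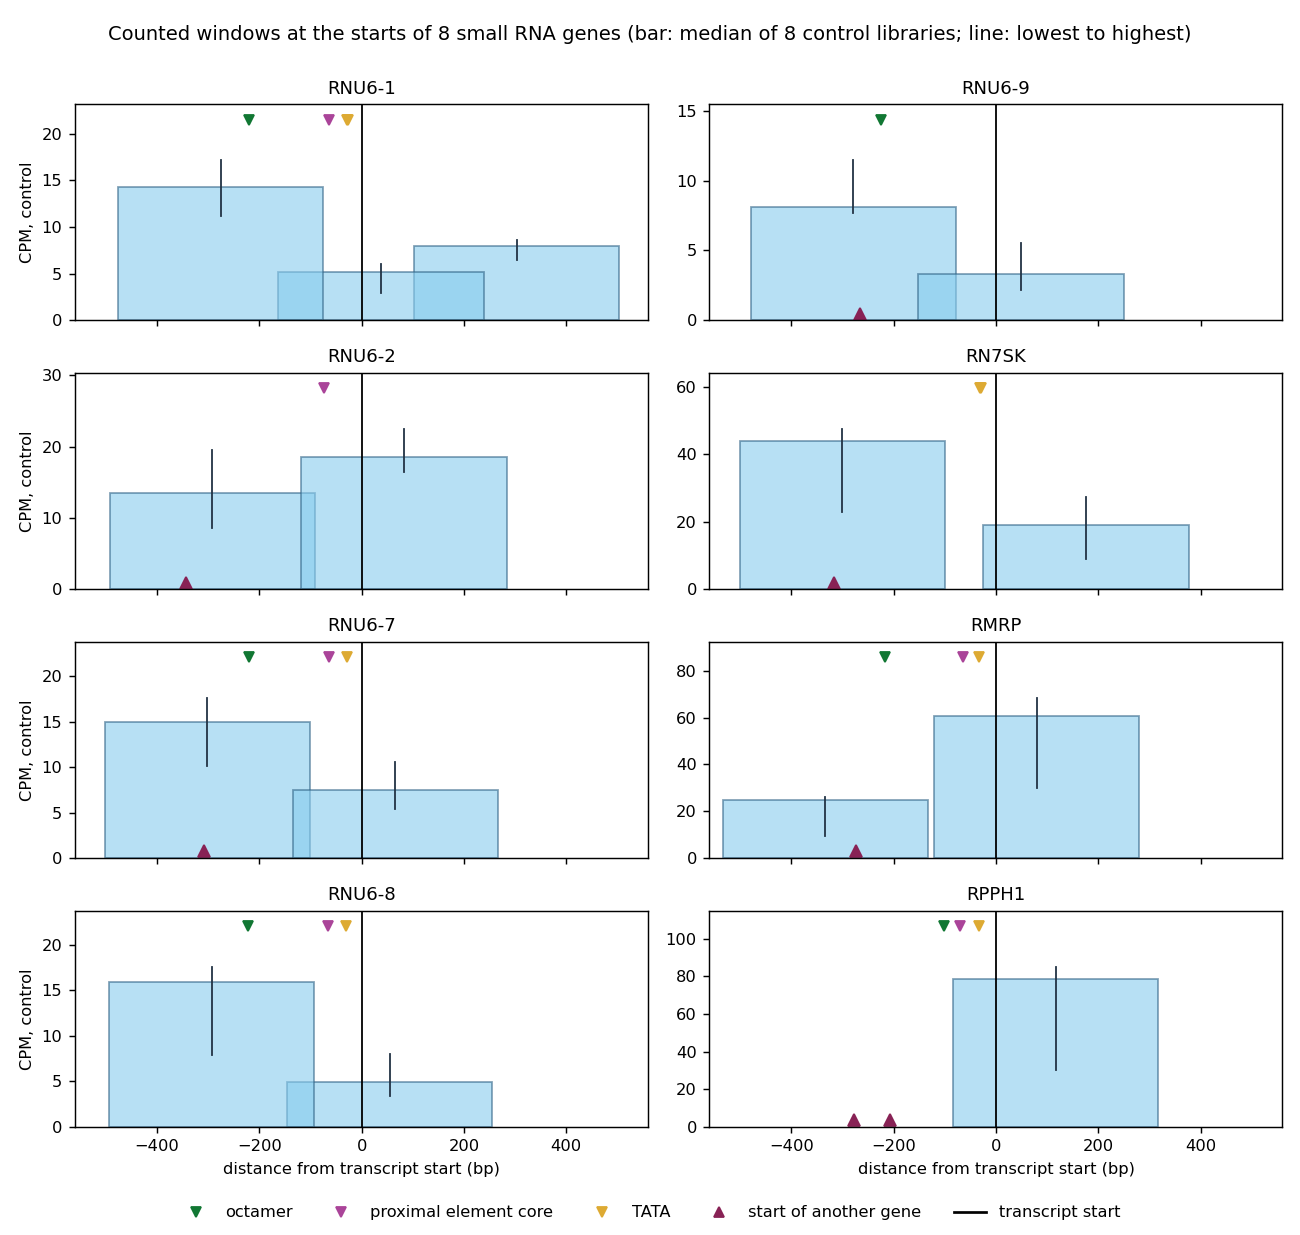
Counted windows at the 8 genes, with distance from the transcript start in bp on the x axis and control accessibility in CPM (counts relative to library size) on the y axis, which differs between panels. Bars span each window at the median of 8 control libraries, lines run from the lowest to the highest library, and triangles mark motif matches and the starts of other genes. At RNU6-1, RNU6-7, RNU6-8, RNU6-9 and RN7SK the upstream bar stands above the start bar.

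Other genes begin close to most of these promoters. TMEM259 starts 343 bp upstream of RNU6-2, MED16 266 bp upstream of RNU6-9, GSTA4 317 bp upstream of RN7SK, CCDC107 273 bp upstream of RMRP and PARP2 208 bp upstream of RPPH1, each on the opposite strand. The lncRNA ENSG00000286527 starts 309 bp upstream of RNU6-7, also on the opposite strand, and another lncRNA, ENSG00000259001, starts 278 bp upstream of RPPH1 on its strand. RNU6-1 and RNU6-8 had no other annotated start within 500 bp. At the genes with such a neighbour, open chromatin of the neighbour's promoter and of the small RNA gene's distal element cannot be told apart in the upstream window.

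Library totals ranged from 2275856 to 11418578 counts in control and from 3373219 to 13671039 in dTAGV-1. Replicate 12 of each group and dTAGV-1 replicate 11 had a flatter signal, with 31.8% (control 12), 38.9% (dTAGV-1 12) and 41.8% (dTAGV-1 11) of counts in the top decile of windows. Control replicate 11 had 45.8%, and the other 12 libraries had 48.1% to 49.6%. The cell line was checked at marker starts: of the genes listed as open in this line, PAX2, SIX4, VIM and KRT18 had tested windows, at 2.24 to 5.43 log2 CPM in control, and LHX1 had none. The blood and liver cell markers PTPRC, SPI1, CD3E, ALB and HBB had no tested window. These are the markers reported here, not the whole lists.

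All 8 genes were accessible in control cells, as measured in CPM scaled with TMM factors or in log2 CPM with a prior count of 2. The start window of RPPH1 ranged from 30.3 to 85.0 CPM with a median of 78.3, and that of RMRP from 29.9 to 68.4 CPM with a median of 60.9. At RN7SK the upstream window, with 22.8 to 47.4 CPM and a median of 43.8, was higher than the start window, with 8.98 to 27.3 CPM and a median of 18.9. In each of these 4 windows the lowest value came from control replicate 12.

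The U6 genes, which make the same RNA, were unequal. RNU6-2 had 16.5 to 22.4 CPM (median 18.5) in its start window. RNU6-7 had 5.40 to 10.5 CPM (median 7.44), RNU6-1 had 2.93 to 5.99 CPM (median 5.20), RNU6-8 had 3.37 to 8.03 CPM (median 4.97) and RNU6-9 had 2.13 to 5.50 CPM (median 3.29). RNU6-2 lay above the other 4 in every control library, while the ranges of those 4 overlapped.

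In log2 CPM, the order of the start windows was RPPH1 (6.11 ± 0.50), RMRP (5.82 ± 0.38), RNU6-2 (4.27 ± 0.16), RN7SK (4.17 ± 0.45), RNU6-7 (2.94 ± 0.34), RNU6-8 (2.35 ± 0.45), RNU6-1 (2.32 ± 0.33) and RNU6-9 (1.84 ± 0.45; control mean ± SD, n = 8 each). RPPH1 exceeded RMRP, RMRP exceeded RNU6-2, and RN7SK exceeded RNU6-7 in 8 of 8 control libraries. RNU6-2 exceeded RN7SK in 5 of 8 libraries and RNU6-8 exceeded RNU6-1 in 4 of 8, so these neighbours in the order did not differ beyond their spread. The 2 remaining steps, from RNU6-7 to RNU6-8 and from RNU6-1 to RNU6-9, had the same sign in 7 and 6 of 8 libraries.

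Upstream, the order was RN7SK (5.36 ± 0.34), RMRP (4.45 ± 0.49), RNU6-8 (3.89 ± 0.38), RNU6-7 (3.88 ± 0.25), RNU6-1 (3.86 ± 0.23), RNU6-2 (3.76 ± 0.35) and RNU6-9 (3.17 ± 0.24; log2 CPM in control, mean ± SD, n = 8). From RNU6-8 to RNU6-7, RNU6-1 and RNU6-2 the steps were 0.010, 0.016 and 0.098, smaller than their SD of 0.23, 0.21 and 0.28, and the higher gene of each step led in 5, 5 and 4 of 8 libraries. Among all tested windows the 16 windows held percentiles from 61.8 (RNU6-9 start) to 99.8 (RPPH1 start), and 10 of them were in the top decile. For scale, the median of tested windows was 1.42 log2 CPM, and that of 31702 tested windows within 500 bp of a coding start was 3.14. Among those coding-start windows the percentiles ran from 18.25 (RNU6-9 start) to 98.9 (RPPH1 start). Only RPPH1 start, RMRP start (97.7) and RN7SK upstream (94.5) were in their top decile.

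The 2 windows of a gene kept the same order in every library. At RNU6-1, RNU6-7, RNU6-8, RNU6-9 and RN7SK the upstream window was the higher in 16 of 16 libraries, by a control mean of 1.54, 0.93, 1.54, 1.33 and 1.18 log2 units, respectively. At RNU6-2 and RMRP the start window was the higher in 16 of 16 libraries, with a control mean of upstream minus start of -0.50 and -1.37.

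The start windows of the U6 genes and of RN7SK hold sequence that occurs elsewhere in the genome, which bears on how many reads could be placed there. A 32-base word of the RNU6-9 start window was found at up to 63055 sites, against up to 49 at the other U6 start windows. In the U6 start windows, 65.1% (RNU6-9) to 78.6% of such words occurred once in hg38. In the RN7SK start window 28.4% did. In the start windows of RMRP and RPPH1 and in the upstream windows of RNU6-1, RNU6-2, RNU6-9, RN7SK and RMRP, 100% did, and in the upstream windows of RNU6-7 and RNU6-8 the share was 92.4%, with a repeated word found at up to 2 sites. How reads with several matches were treated is not given in the sources used here. The part of lost reads in the lower start windows was not tested, and the levels of U6 genes are therefore compared with this limit.

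After dTAGV-1, 1 of the 16 windows fell and 15 did not pass the test. The window that fell was the upstream window of RNU6-7, chr14:32201543-32201943, whose counts were 62.7% of control in the fit. The test was edgeR's quasi-likelihood test over 185040 tested windows, of which 0.213% were called lower and 0.00108% higher at a Benjamini-Hochberg adjusted p of 0.05. None of the 16 windows was called higher. At an unadjusted edgeR p below 0.05 there were 2 windows, both at RNU6-7. Of all 185040 tested windows, 2876 were lower and 2405 higher at that limit. The log2 fold change was negative in 10 of the 16, with a median of -0.015. Over all tested windows 48.2% were negative and the median was 0.0077.

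In the upstream window of RNU6-7 the control libraries ranged from 10.1 to 17.6 CPM with a median of 14.9. The dTAGV-1 libraries ranged from 6.89 to 11.7 CPM with a median of 9.14. Each of the 8 dTAGV-1 libraries was lower than the control median, and 5 of them fell short of even the lowest control library, which was the flat replicate 12. The mean fell from 3.88 ± 0.25 to 3.23 ± 0.25 log2 CPM (SD, n = 8 each). The log2 fold change was -0.67 (standard error, SE, of 0.14), and its 95% interval ran from -0.95 to -0.40 (edgeR adjusted p = 0.00698). Without control replicate 12 it was -0.72, and without replicates 11 and 12 of both groups it was -0.68, both called.

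The start window of RNU6-7 ranged from 5.40 to 10.5 CPM in control and from 4.85 to 9.78 CPM in dTAGV-1, with medians of 7.44 and 5.36. The groups overlapped, although 4 of 8 dTAGV-1 values were lower than any control value. Its log2 fold change was -0.34 (SE 0.16, unadjusted p = 0.035, edgeR adjusted p = 1). It shares 33 bases with the upstream window. The next window further upstream, centred 732 bp before the start and outside the 500 bp limit, had a log2 fold change of -0.0071 (SE 0.14). The called window holds both the distal element of RNU6-7 and the start of ENSG00000286527.

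RNU6-8 is the gene most like RNU6-7 in sequence. Its upstream window ranged from 7.85 to 17.6 CPM in control (median 15.9) and from 11.97 to 14.6 CPM in dTAGV-1 (median 13.6). Each of the 8 dTAGV-1 libraries was lower than the control median, but none was lower than the lowest control library, again replicate 12. The log2 fold change was -0.19 (SE 0.13), with a 95% interval from -0.46 to 0.083 and an edgeR adjusted p of 1. Without control replicate 12 it was -0.25, also not called. The start window of RNU6-8 went from 2.35 ± 0.45 to 2.30 ± 0.21 log2 CPM, and its log2 fold change was -0.11 (SE 0.17).

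**Figure D2:**
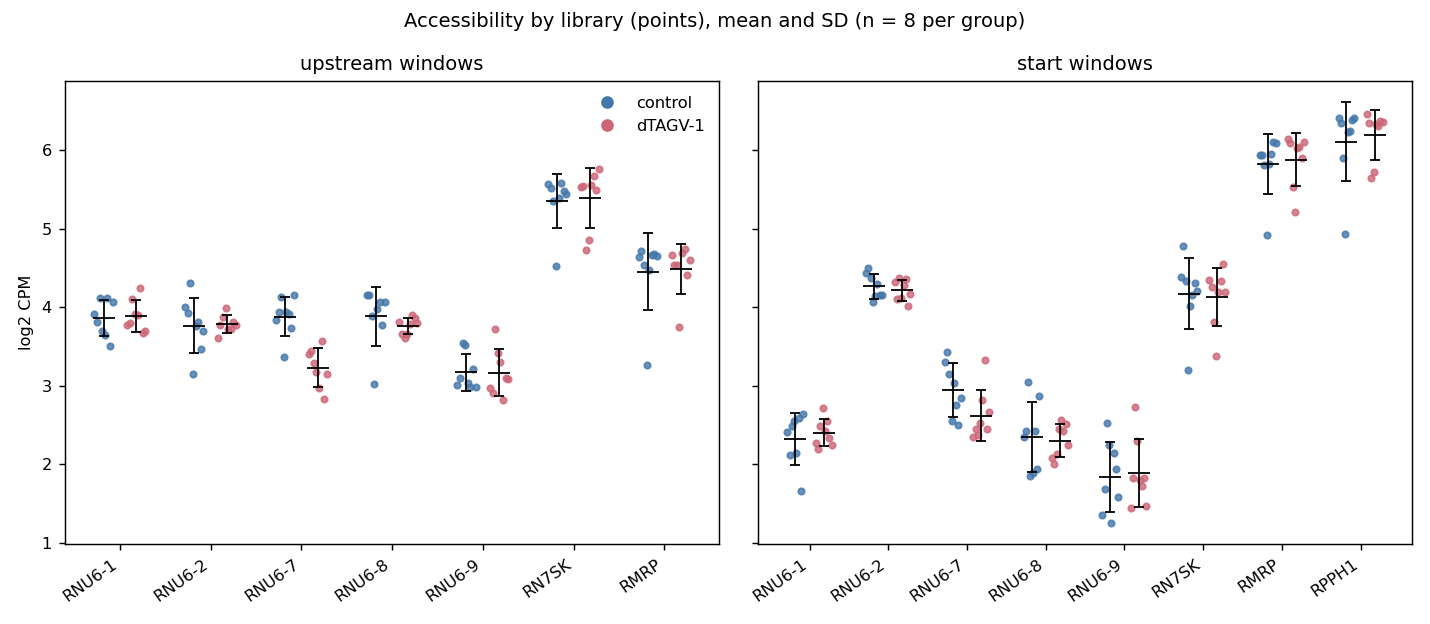
Accessibility in log2 CPM (y axis) of each gene's upstream window (left) and start window (right) in 8 control and 8 dTAGV-1 libraries, with points for libraries and bars for the mean and SD. The upstream points of RNU6-7 shift from a mean of 3.88 in control to 3.23 in dTAGV-1, with 5 of 8 dTAGV-1 points below every control point.

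The other U6 genes gave small and uncalled differences. At RNU6-1 the upstream window went from 3.86 ± 0.23 to 3.89 ± 0.20 log2 CPM, the start window from 2.32 ± 0.33 to 2.403 ± 0.18, and the downstream window from 2.98 ± 0.16 to 2.95 ± 0.17 (SD, n = 8 each). Their log2 fold changes were 0.014, 0.061 and -0.022. At RNU6-2 the upstream window went from 3.76 ± 0.35 to 3.78 ± 0.11 log2 CPM and the start window from 4.27 ± 0.16 to 4.21 ± 0.13. The fold changes in the fit were -0.041 and -0.064. At RNU6-9 the upstream window measured 3.17 ± 0.24 and 3.16 ± 0.30 log2 CPM, and the start window 1.84 ± 0.45 and 1.89 ± 0.43, for log2 fold changes of -0.0014 and 0.040. The control and dTAGV-1 ranges overlapped in each of these 7 windows.

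RN7SK, which alone among the 8 genes held the exact ZNF143 core, showed no called change. Its upstream window ranged from 26.2 to 53.7 CPM in dTAGV-1 (median 46.0) and had a log2 fold change of 0.040 (SE 0.16) and a 95% interval from -0.27 to 0.35. Its start window ranged from 10.2 to 23.2 CPM in dTAGV-1 (median 18.4) and had a log2 fold change of -0.064 (SE 0.15). The centre of the upstream window lay 300 bp before the start, so the core 154 bases before the start falls in that window.

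RMRP and RPPH1 also gave no call. The start window of RMRP ranged from 36.8 to 70.1 CPM in dTAGV-1 (median 65.0), with a log2 fold change of 0.052 (SE 0.16). Its upstream window had 9.35 to 26.0 CPM in control (median 24.8) and 13.2 to 26.5 CPM in dTAGV-1 (median 23.5), with a log2 fold change of -0.0069 (SE 0.15). The start window of RPPH1 ranged from 50.0 to 87.7 CPM in dTAGV-1 (median 80.9), with a log2 fold change of 0.045 (SE 0.17). In all 3 windows dTAGV-1 and control overlapped.

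**Figure D3:**
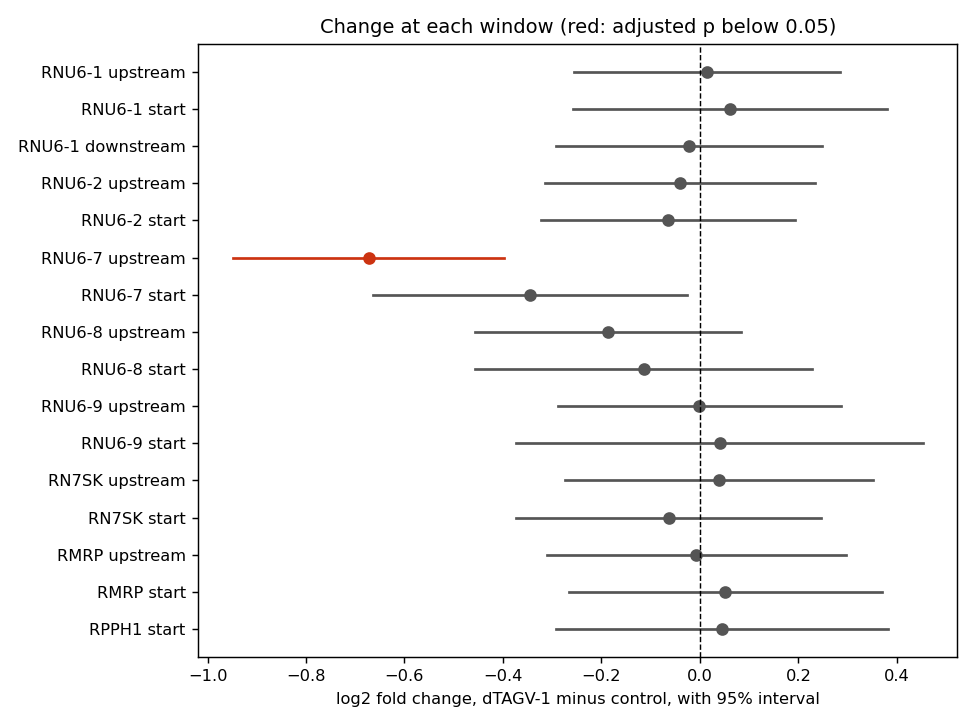
Log2 fold change of dTAGV-1 minus control (x axis) for each of the 16 windows, with points for the edgeR estimate and lines for the 95% interval. The interval of the RNU6-7 upstream window runs from -0.95 to -0.40, and 14 of the 16 intervals include 0.

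For the 15 windows that were not called, the 95% intervals reached down to -0.66 and up to 0.45, and each had an edgeR adjusted p of 1. Standard errors over the 16 windows ranged from 0.13 to 0.21. An uncalled window can still have changed within its interval, and most changes of 0.5 log2 units were missed in simulated data.

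Whether the genes differed from each other in their response was tested within libraries, where the scaling factor of the library cancels while its share of flat signal does not. For each of 49 pairs of windows of the same kind, the difference in log2 CPM was taken in each library and compared between groups by a two-sided exact permutation test over 12870 assignments, with Benjamini-Hochberg adjustment over the 49 pairs. In control, the upstream windows of RNU6-7 and RNU6-8 were level, at a mean difference of -0.010 ± 0.23 (SD, n = 8). In dTAGV-1 RNU6-7 lay lower by a mean difference of -0.53 ± 0.28, so that the difference moved by -0.52 (exact permutation p = 0.000777, adjusted p = 0.0127). In 6 of 8 dTAGV-1 libraries the difference was lower than in any control library.

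Against RNU6-1 the difference moved by -0.67 (exact permutation p = 0.0001554, the smallest this design can give, adjusted p = 0.00762), and 8 of 8 dTAGV-1 differences lay below every control difference. Adjusted p-values were 0.0114 against RNU6-2, 0.0244 against RN7SK and 0.0171 against RMRP by the same exact test. Against RNU6-9 the difference moved by -0.64 and did not pass (exact permutation p = 0.0121, adjusted p = 0.099). RNU6-7 was part of each of the 5 pairs that passed. These pairs share 1 window and the libraries of the edgeR call, so they are not separate evidence for it. The pairs were added after the values had been seen. With all libraries, 0 of the 15 upstream pairs without RNU6-7 passed and 0 had an unadjusted exact permutation p below 0.05, with moves of at most 0.16. Of the 28 pairs of start windows 0 passed, and the 7 with RNU6-7 moved by 0.27 to 0.41 with a lowest adjusted p of 0.383.

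Without replicates 11 and 12 of both groups, among them the 3 libraries of flatter signal, 3 pairs passed by the same exact test over 924 assignments: RNU6-7 against RNU6-1 (a move of -0.69, adjusted p = 0.0354), against RN7SK (-0.78, adjusted p = 0.0354) and against RMRP (-0.66, adjusted p = 0.0354). The pairs of RNU6-7 with RNU6-2 and RNU6-8 no longer passed, with moves of -0.65 (adjusted p = 0.053) and -0.46 (adjusted p = 0.0663). Among the 15 upstream pairs without RNU6-7, 0 passed, but 3 had an unadjusted p below 0.05 in these 12 libraries. RNU6-8 moved against RN7SK by -0.32 (exact permutation p = 0.00649, adjusted p = 0.053). RNU6-2 moved against RNU6-8 by 0.18 (exact permutation p = 0.00866, adjusted p = 0.0606), and RN7SK moved against RMRP by 0.13 (exact permutation p = 0.0411, adjusted p = 0.224).

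**Figure D4:**
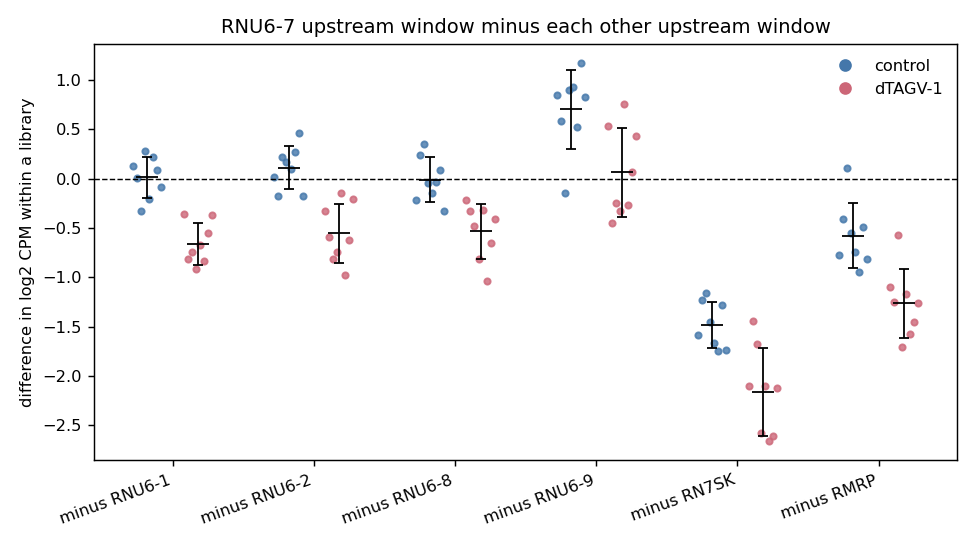
Difference in log2 CPM within each library between the upstream window of RNU6-7 and that of each other gene (y axis), in 8 control and 8 dTAGV-1 libraries, with points for libraries and bars for the mean and SD. Against RNU6-8 the mean difference goes from -0.010 to -0.53, and the dTAGV-1 mean lies below the control mean for each of the 6 genes.

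Within RNU6-7 the difference between upstream and start window moved by -0.32 log2 units and did not pass (exact permutation p = 0.0684, adjusted p = 0.479 over 7 genes). At the other 6 genes with both windows the ratio of upstream to start moved by 0.023 to 0.078 in size, with an adjusted p of 0.785 by the same exact test.

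The genome holds many annotated copies of these RNAs, most of them pseudogenes, and they were counted to see how the 8 genes stand among their own copies. Of 1304 other U6 copies, 59 (4.53%) had a counted window within 500 bp, and of 299 copies of 7SK, 13 (4.35%) had one. The 1 annotated copy of RMRP and the 2 of RPPH1 had none. Within 250 bp, 19 U6 copies and 11 copies of 7SK had a window. The share for random positions was not measured, so a window near a copy need not belong to it. The highest window at a U6 copy had a median of 1.11 log2 CPM in control. The top 3 were RNU6-430P (2.67), RNU6-1300P (2.61) and RNU6-1196P (2.60), which lie above the start windows of RNU6-1, RNU6-8 and RNU6-9 but below every upstream window of the 5 U6 genes. The highest 7SK copies were RN7SKP260 (2.395, with another gene's start within 500 bp), RN7SKP276 (1.76) and RN7SKP132 (1.21). Of 77 windows at copies 61 were tested and 0 were called, with a median log2 fold change of -0.059.

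**Figure D5:**
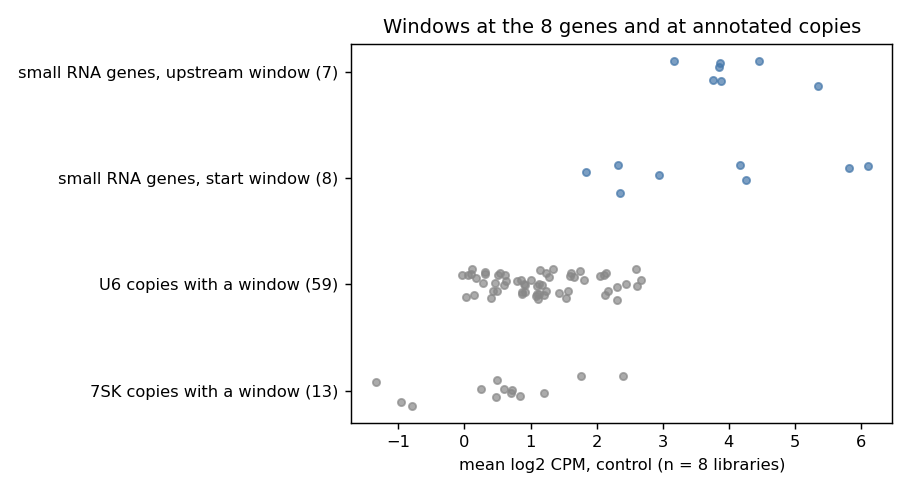
Mean control accessibility in log2 CPM (x axis, n = 8 libraries) of the upstream and start windows of the 8 genes and of the highest window at each annotated copy of U6 (59) or 7SK (13). Points for the upstream windows lie at 3.17 and above, to the right of every copy.

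Genes that work with these RNAs or that RNA polymerase III also transcribes were read from 5 lists, in which 0 windows were called higher. Of 15 windows at 9 of 12 other such small RNA genes with upstream or mixed promoters (Y RNAs, 7SL, vault RNAs and BCYRN1), 0 were called, with a median log2 fold change of 0.030. Of 18 tested windows at genes of the transcription machinery of type 3 promoters, 1 was lower. It lay at SNAPC3, a subunit of SNAPc, at chr9:15422541-15422941, and fell from 5.68 ± 0.44 to 4.83 ± 0.39 log2 CPM (SD, n = 8; log2 fold change -0.87, SE 0.16, edgeR adjusted p = 0.00234). Another SNAPC3 window, starting at 15423314, had a log2 fold change of 0.51 that was not called (edgeR adjusted p = 0.375). Windows at SNAPC1, SNAPC2, SNAPC4, SNAPC5, BRF2, TBP, POU2F1 and ZNF143 were not called, and BDP1 had no tested window.

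Of 30 windows at genes of U6 binding and processing factors, 1 was lower, at PRPF4, a protein of the U4/U6 particle, at chr9:113275401-113275801. In log2 CPM it fell from 5.54 ± 0.31 to 4.90 ± 0.23 (n = 8; log2 fold change -0.66, SE 0.15, edgeR adjusted p = 0.0209). The call was lost in 10 of 22 alternative fits, with adjusted p-values up to 0.109, when no low-count filter was used, when 1 of control replicates 9, 10, 13, 14, 15 or 16 was left out, or when dTAGV-1 replicate 9, 11 or 16 was. That of SNAPC3 was kept in 22 of 22. LARP7 and MEPCE stand in the lists of both U6 and 7SK. Of 17 windows at genes of 7SK partners and 18 at genes of RNase P and RNase MRP proteins, 0 were called. Their median log2 fold changes were -0.019 and -0.026. At an unadjusted edgeR p below 0.05 they had 1 and 0 windows, beside 2876 lower and 2405 higher of all 185040 tested windows. The medians of the machinery and U6 lists were -0.046 and -0.00040.

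The mean log2 CPM of the 8 start windows, taken library by library, was compared with 27941 windows at coding starts to find those most like it. The highest Pearson correlations over 16 libraries belonged to windows at AGBL5 (0.91), FBXO3 (0.91) and VIM (0.91), against a median of 0.53. These values share the libraries and their flat signal. Without replicates 11 and 12 of both groups they were 0.82, 0.88 and 0.76 over 12 libraries.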

How the data were processed

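ATAC-seq libraries of a degron-tagged HEK293T clone were compared after DMSO or dTAGV-1, with 8 libraries per group. The authors' deposited table holds raw whole-number counts for windows of 401 bp, per the file headers. It also gives 1 value of −log10 q per window, and the deposited summit list gives a −log10 score; neither was used in a test. The submitters' processing notes name cutadapt 1.8.1, Bowtie2 2.4.4, SAMtools 1.9 and hg38. Read filters, shifting of reads for Tn5, peak caller and counting tool are not given in the sources used here. Of the windows, 0 lay past the hg38 chromosome ends.

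The members and gene lists were chosen with earlier results of these data known. The result for 1 marker gene in each of the 2 cell marker lists is not reported here. Windows were matched to GENCODE 44 starts by centre. All 8 genes are named by their windows within 500 bp, of the lists genes with a called window, of copies the 3 highest, and the 3 windows most correlated with the mean start window. Counts were tested with edgeR 4.0.16 (R 4.3.3): filterByExpr, TMM, quasi-likelihood test, no covariate, Benjamini-Hochberg adjustment over 185040 windows, threshold 0.05. Log2 CPM used a prior count of 2. Pairs of windows were compared by exact permutation (scipy 1.17.1). The pairs were added after the values had been seen and cover every pair of a kind, also without replicates 11 and 12. Sequences were read from hg38 with pysam 0.24.0 and aligned with Biopython 1.88. The fit was first tested on simulated data with known changes in windows drawn at random from all tested windows. It recovered 5 of 65 changes of 0.5 log2 units, 36 of 70 of 1 and 63 of 65 of 2, with 3 false calls.

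Alternatives were DESeq2 1.42.0, RLE size factors, no filter, a replicate block, loess offsets (span 0.3), each library left out, replicates 11 and 12 left out, other distances and prior counts. Between libraries of a group, chi-square per degree of freedom was 1.63 to 4.99 over 56 pairs, so that no library was a copy of another. This cannot show whether they came from separate cultures. Each library was counted as its own sample. Depth is limited by totals of 2275856 to 13671039 counts, and 9 to 1056 counts lay behind each value of the 16 windows.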

Additional observations from a re-analysis of the deposited data

Results flagged for a closer look

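Each group of 8 libraries was checked for a library standing apart, by the gap to its nearest neighbour over the range of the group. Of 38 such groups 8 gave a value. Chance gives about 1 in 20 for a single group, but the groups share libraries, so this rate does not apply to their count. Control replicate 12 accounted for 7 of them. Its log2 CPM was 3.02 at the RNU6-8 upstream window (others 3.77 to 4.16), 4.53 at the RN7SK upstream window (5.36 to 5.57), 4.92 at the RMRP start window (5.80 to 6.10), 3.26 at the RMRP upstream window (4.48 to 4.71) and 4.93 at the RPPH1 start window (5.90 to 6.41). Its TMM factor was 1.23 (0.958 to 1.02), and 31.8% of its counts lay in the top decile of windows (45.8% to 49.6%). In the dTAGV-1 group, replicate 12 measured 3.75 at the RMRP upstream window (4.41 to 4.74). These are strong windows and the library's signal was flat; their relation was not tested.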

How the results depend on the processing

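The upstream window of RNU6-7 was lower and called in 22 of 22 alternative fits, with log2 fold changes from -0.73 to -0.62 when 1 library was left out, -0.68 to -0.67 otherwise, and adjusted p-values up to 0.0462. The 15 other windows were called in 0 of 22. The count of member windows called was 1 in all fits and 0 when only windows within 250 bp were taken, which leaves out the upstream windows by construction.

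Over all tested windows, 397 were called in the fit described above, 753 with a replicate block, 684 with loess offsets, 781 without replicates 11 and 12 of both groups, and 321 to 632 when 1 library was left out, with 632 without control replicate 12; the cause was not tested. Replicate numbers pair no samples by the labels. Deviations of same-numbered libraries correlated at 0.028 to 0.336, and in 5 of 8 numbers the control library matched its own number best. The block changed the call of 0 of the 16 windows. Of the pathway lists, 2 windows were called, 1 without a filter and 1 to 2 when a library was left out, PRPF4 being the window lost. Copies with a window numbered 72, and 30 within 250 bp, where fewer windows qualify.

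Uncalled values near 0 changed sign when single libraries were left out. The ranges were -0.063 to 0.0079 (RNU6-1 downstream), -0.024 to 0.12 (RNU6-1 start), -0.049 to 0.055 (RNU6-1 upstream), -0.095 to 0.042 (RNU6-2 upstream), -0.086 to 0.062 (RNU6-9 upstream), -0.094 to 0.17 (RNU6-9 start), -0.036 to 0.11 (RN7SK upstream), -0.14 to 0.038 (RN7SK start), -0.034 to 0.12 (RMRP start), -0.095 to 0.062 (RMRP upstream) and -0.060 to 0.11 (RPPH1 start). With DESeq2 the RNU6-9 upstream window was at 0.00035. Start windows of the U6 genes rest on as few as 9 counts in a library, which limits their precision.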
